A study of Caenorhabditis elegans with 3 samples.

Results

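The subject is the set of small nucleolar RNA (snoRNA) genes that lie inside protein-coding genes of Caenorhabditis elegans, and how DRAP-1 was placed along them. A gene was taken as a member when the Ensembl WBcel235 gene models give it the biotype snoRNA and its 5′ end falls within the span of a protein-coding gene on either strand. This gave 216 members of 346 snoRNA genes and of 46890 genes of all kinds, and left 130 snoRNA genes outside coding genes. The choice used the annotation alone and no measured value. The data were chromatin immunoprecipitation followed by sequencing (ChIP-seq) in 3 biological replicates of 1 group, which carry the replicate numbers 2, 3 and 4. All came from strain OP700, in which a transgene (wgIs700) makes DRAP-1 with a C-terminal EGFP and 3xFLAG tag in unc-119(tm4063) worms rescued with unc-119(+), and no untagged strain is among the samples. The chromatin was from whole mixed-stage embryos of both sexes, obtained by bleaching and labelled as 3 hours old. In such a mixture fewer cells with DRAP-1 at a gene and less DRAP-1 per cell cannot be told apart.

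snoRNAs guide the chemical modification of ribosomal RNA and other RNAs. Box C/D snoRNAs direct methylation of the ribose, and box H/ACA snoRNAs direct the change of uridine to pseudouridine. In animals many snoRNAs are cut out of introns of a host gene and need no promoter of their own, while other snoRNA genes have their own promoter and are transcribed by RNA polymerase II or III. DRAP-1 belongs to negative cofactor 2 (NC2), a dimer of an alpha and a beta chain that sits on promoter DNA together with the TATA-binding protein, which all nuclear RNA polymerases use. DRAP-1 is the alpha chain. tRNA genes are transcribed by RNA polymerase III from an A box and a B box inside the gene, and a run of T ends the transcript.

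DRAP-1 peaks had their summit within 100 bp of the 5′ end of 36 members, and the bases before the strongest of them show what many of these genes share. Of these windows, 9 are printed here, each the 100 bases before the annotated 5′ end on the snoRNA's strand, read from the RefSeq genome of ce11 (the assembly also named WBcel235). They were taken from the 15 bound members of highest signal. Capitals mark letters of the A box (TGGCNNAGT) and the B box (GTTCGANNC), each with at most 1 mismatch, or of a paired element made of AACNCG, 5 bases and TGTC. The windows were V:19643188-19643287 on the minus strand for Y43F8C.22, V:11314158-11314257 on the plus strand for T03F7.8, V:8500479-8500578 on the plus strand for ZK994.7 and II:5105232-5105331 on the minus strand for C04G6.12. The others were V:11782892-11782991 on the plus strand for F55A11.10, II:7184079-7184178 on the minus strand for C27H5.9, IV:8927165-8927264 on the plus strand for D1046.6, IV:9477700-9477799 on the minus strand for F38E11.14 and IV:11474192-11474291 on the minus strand for C10C6.8.
Y43F8C.22: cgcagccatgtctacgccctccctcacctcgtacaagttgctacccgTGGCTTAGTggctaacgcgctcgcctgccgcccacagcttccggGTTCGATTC
T03F7.8: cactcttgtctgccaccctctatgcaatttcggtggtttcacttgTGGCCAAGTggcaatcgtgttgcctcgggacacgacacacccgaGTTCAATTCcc
C04G6.12: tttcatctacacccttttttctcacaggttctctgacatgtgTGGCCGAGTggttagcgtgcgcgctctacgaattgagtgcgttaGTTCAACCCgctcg
F55A11.10: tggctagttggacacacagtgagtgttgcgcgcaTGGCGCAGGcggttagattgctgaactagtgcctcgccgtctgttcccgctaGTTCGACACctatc
C27H5.9: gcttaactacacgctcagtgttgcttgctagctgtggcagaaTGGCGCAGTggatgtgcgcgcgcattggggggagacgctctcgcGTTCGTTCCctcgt
D1046.6: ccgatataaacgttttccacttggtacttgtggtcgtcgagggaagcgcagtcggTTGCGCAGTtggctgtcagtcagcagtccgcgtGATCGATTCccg
ZK994.7: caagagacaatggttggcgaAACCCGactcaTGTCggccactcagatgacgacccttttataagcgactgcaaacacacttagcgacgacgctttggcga
F38E11.14: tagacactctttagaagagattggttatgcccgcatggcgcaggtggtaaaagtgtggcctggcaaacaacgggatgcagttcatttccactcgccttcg
C10C6.8: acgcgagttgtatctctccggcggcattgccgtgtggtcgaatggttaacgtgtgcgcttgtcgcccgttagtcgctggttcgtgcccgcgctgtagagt
The first 6 hold the A and B box letters, ZK994.7 holds the paired element, and F38E11.14 and C10C6.8 hold neither pair under these rules.

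The data are lists of regions with a signal value given by the authors, whose scale is not stated. Each replicate has a list of 30000 candidate regions, one more such list was made from the pooled reads, and 1468 peaks passed the authors' filter on irreproducible discovery rate (IDR), which retains regions ranked alike in replicates. The 1468 IDR peaks were the 1468 regions of highest signal in the pooled list. A member is called bound when the summit of an IDR peak lies within 100 bp of its 5′ end, and a candidate when a pooled region does. Ranks run from 1, the highest signal, within each list. Depth is unknown, because the lists give no counts of reads, and the 95% intervals below (Clopper-Pearson, exact) cover only the counting of genes. Members are not replicates, so tests were made over the 3 replicate lists, each cut at its 1468 highest regions. Where a replicate is left out below, no peaks were called again, and the pooled and IDR lists still hold the reads of all 3 replicates. Fewer members were bound in each of these settings, which cannot be told apart from the effect of a stricter limit.

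Of the 216 members, 36 (16.7%, interval 12.0 to 22.3) were bound, against 1.53% of all genes. The 36 shared 35 distinct peaks, since C51F7.3 and C51F7.4, which follow each other in frm-7, lay near the same summit. A pooled candidate lay at 62 members (28.7%, interval 22.8 to 35.2), against 8.30% of all genes, so that 26 members had a candidate region that did not pass IDR and 154 had none. With a matching distance of 50 bp instead of 100 bp, 23 members were bound and 36 had a candidate. The summits lay at a median of -44.0 bases from the 5′ end, near the shorter distance.

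The replicates gave the same picture one by one. Among the 1468 highest regions, 31 members had a summit in replicate 2 (14.4%), 33 in replicate 3 (15.3%) and 38 in replicate 4 (17.6%). Of all genes, 1.39%, 1.50% and 1.47% had one in replicates 2, 3 and 4. The members' share averaged 15.7% ± 1.67 against 1.39% ± 0.0535 for the other 46674 genes (SD, n = 3 replicates each). The difference was 13.0, 13.8 and 16.2 percentage points in replicates 2, 3 and 4, with a mean of 14.4 ± 1.65, and was positive in 3 of 3 (exact sign-flip permutation test, two-sided p = 0.25, the smallest that 3 differences can give). In every one of the 3 replicates 29 members had a summit among the 1468 highest regions (13.4%), against 0.830% of all genes. At a matching distance of 50 bp this count was 11. All 29 were bound, and of the other 7 bound members 4 were found in 2 replicates and 3 in 1. Of the unbound members 4 had such a summit in 1 replicate, namely smy-2 in replicate 3 and Y55F3BR.9, F07A11.15 and F39B2.14 in replicate 4, and 0 in every replicate.

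**Figure D1:**
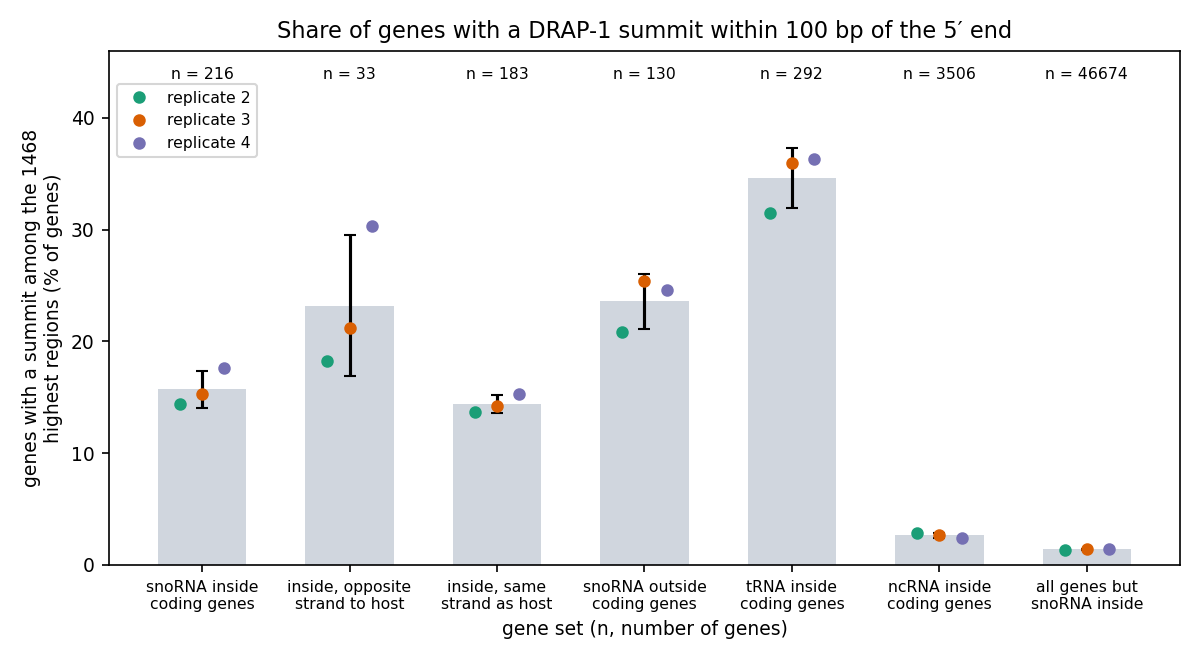
Percent of genes with a DRAP-1 summit within 100 bp of the 5′ end among the 1468 highest regions of each replicate (points), with the mean (bar) and SD over 3 replicates (error bar), for snoRNA genes inside coding genes, by strand relative to the host, and for other gene sets. snoRNA genes inside coding genes averaged 15.7%, snoRNA genes outside them 23.6%, tRNA genes inside coding genes 34.6%, and all genes but the snoRNA genes inside coding genes 1.39%.

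The bound share was lower inside coding genes than outside them in each replicate, though the intervals overlapped and the size of the difference moved with the settings. Of the snoRNA genes inside coding genes 36 of 216 were bound (16.7%), against 31 of 130 outside (23.8%, interval 16.8 to 32.1), a difference of -7.18 percentage points (interval -16.3 to 1.37). This difference was -1.66 at a matching distance of 50 bp and -3.34 with replicate 3 left out. The share among the 1468 highest regions was lower inside, with differences of -6.42, -10.1 and -7.02 percentage points in replicates 2, 3 and 4 and a mean of -7.85 ± 1.98 (exact sign-flip permutation test, p = 0.25, the smallest possible). The median signal at bound genes was 378.1 inside and 389.4 outside coding genes, and both lie above the median of 174.1 over all IDR peaks. Within coding genes, the members' mean share of 15.7% lay below the 34.6% ± 2.67 of 292 tRNA genes and above the 2.64% ± 0.243 of 3506 genes of the biotype ncRNA (mean differences -18.8 ± 1.77 and 13.1 ± 1.91, n = 3, exact permutation p = 0.25 each).

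The bound members held some of the strongest DRAP-1 peaks of the genome. Their signals were 126.7 to 1845. The highest peak of all (2257) lay at a snoRNA gene outside coding genes. Of the 36 bound members 8 lay at peaks among the 25 highest, with C51F7.3 and C51F7.4 both counted for 1 shared peak. By pooled rank the bound members fell into a large and a small group. There were 29 members at ranks 2 to 402, 0 at ranks 500 to 900 and 7 at ranks 958 to 1467. All 29 of the first group were in every replicate, and 35 of the 36 had a summit in all 3 lists of 30000 regions. The remaining one, C17D12.8, had none in replicates 2 and 3. The −log10 q-value of the bound peaks given by the authors' caller was 2.35 to 2.83.

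Y43F8C.22, in an intron of a gene for a subunit of the ER membrane protein complex (Y43F8C.7), had the highest signal of any member. Its peak had a signal of 1845 and ranked 2 in the pooled list and 2, 2 and 2 in replicates 2, 3 and 4. The 5′ end lies 843 bp from the host's 5′ end on the same strand, and the summit lay at -49 from the snoRNA's 5′ end, that is upstream of it. The letters ACA lie within its last 7 bases, and H/ACA snoRNAs carry them near the 3′ end.

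C51F7.4 and C51F7.3, in the FERM domain gene frm-7, were the only pair of bound members in 1 host. Their shared peak had a signal of 1387 and ranked 4 in the pooled list and 4, 4 and 5 in replicates 2, 3 and 4. The summit lay at -69 from the 5′ end of C51F7.3, which holds the C and D box letters of a methylation guide, and at 40 from that of C51F7.4 (negative positions are upstream). Which of the 2 genes the peak belongs to cannot be told apart. In the pooled list C51F7.4 was the one bound member with its summit downstream of its 5′ end.

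Members on the strand opposite to their host were among the strongest. T03F7.8, in the cuticlin-like gene cutl-18, had a signal of 1116 and ranked 6 in the pooled list and 11, 6 and 6 in replicates 2, 3 and 4. C04G6.12, in the MAP kinase gene mpk-2, had a signal of 701.2 and ranked 20, with 29, 26 and 25 in the replicates. C27H5.9 lies only 277 bp from the 5′ end of pdl-1, a phosphodiesterase delta-like gene, and had a signal of 681.2 at rank 25, with 111, 22 and 14 in the replicates. ZK484.9, in the ABC transporter gene haf-9, had a signal of 601.0 at rank 47, with 33, 64 and 53. T03F7.8, C04G6.12 and ZK484.9 lie 2643, 1113 and 1023 bp from the host's 5′ end. All 4 summits lay upstream of the snoRNA, at positions of -54 to -37, which is the side that faces the host's 3′ end.

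Same-strand members deep in long hosts were among the strongest too. ZK994.7 lies 5690 bp into pxn-1, which encodes a peroxidasin, an enzyme of the extracellular matrix, and had a signal of 948.6 at rank 9, with 9, 10 and 9 in replicates 2, 3 and 4. F55A11.10 lies 6154 bp into F55A11.6 (signal 692.1, rank 21, with 35, 23 and 23). C27H6.5 lies 5967 bp into unc-41, a stoned B-like gene of synaptic vesicle recycling (signal 631.1, rank 37, with 34, 39 and 63). The summits lay at -29, -45 and -69. None of the 3 hosts had an IDR summit at its own 5′ end.

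The remaining 5 of the 15 highest members had ranks of 25 to 114 in every replicate. C05D2.15, in the MADF domain gene madf-11, ranked 42 in the pooled list with a signal of 611.7, and 108, 35 and 26 in replicates 2, 3 and 4. D1046.6, in cfim-2, an RNA-binding subunit of the machinery that makes mRNA 3′ ends, ranked 43 with a signal of 610.3, and 25, 92 and 32. F38E11.14, in the cyclic nucleotide-gated channel gene cng-3, ranked 54 with a signal of 567.9, and 114, 51 and 28. Replicate 2 gave the weakest rank for C05D2.15 and F38E11.14, and replicate 3 for D1046.6. C10C6.8, in the cation-transporting ATPase gene catp-8, ranked 56 with a signal of 561.2, and 57, 57 and 66. Y38F2AR.14, in the 5-oxoprolinase gene Y38F2AR.12, ranked 68 with a signal of 535.0, and 79, 55 and 114. These 5 lie 941 to 5060 bp from the host's 5′ end, all on its strand, and their summits lay at -64 to -9.

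The other bound members had signals under 500. They were M106.6 in mix-1, a condensin subunit gene, at 495.7, K11C4.6 in the beta-spectrin gene unc-70 at 392.4, Y71F9AM.7 in cogc-3 at 384.9, T04A8.17 in ppat-1, which acts in purine synthesis, at 371.3, T24H7.6 in T24H7.2 at 363.2 and ZK546.18 in the Mediator subunit gene mdt-4 at 340.7. T08B2.13 in fars-1, which encodes phenylalanine-tRNA ligase, had 339.0, C14C10.8 in ril-2 had 309.4, C16D9.11 in rol-3 had 307.6, W08G11.6 in W08G11.3 had 268.3 and Y71D11A.7 in acsd-1 had 265.9. F11A10.9 in the RNA-binding protein gene rbm-34 and Y37E3.20 in pcyt-2.1 both had 247.2, and H04D03.5 in smrd-1 had 232.6. All of these were found among the 1468 highest regions of every replicate.

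The 7 weakest bound members were each missing from the 1468 highest regions of at least 1 replicate. R12E2.17 in the proteasome subunit gene rpn-8 had a signal of 154.5 and ranked 1573, 896 and 1141 in replicates 2, 3 and 4. F25H5.9 in the pyruvate kinase gene pyk-1 had 152.8, with ranks of 1337, 2125 and 917. K02C4.7 in ltd-1 had 147.1, with ranks of 5373, 1017 and 810. Each of these missed the limit in 1 replicate. F01D5.12 in F01D5.10 had 146.4 with ranks of 2234, 1037 and 2833, C08D8.3 in C08D8.1 had 140.2 with 1249, 7467 and 963, and T06D8.11 in plpr-1 had 135.1 with 5818, 1551 and 1091. C17D12.8 in pcmd-1, a gene of the centrosome, had 126.7 and was found in replicate 4 alone, at rank 1279.

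**Figure D2:**
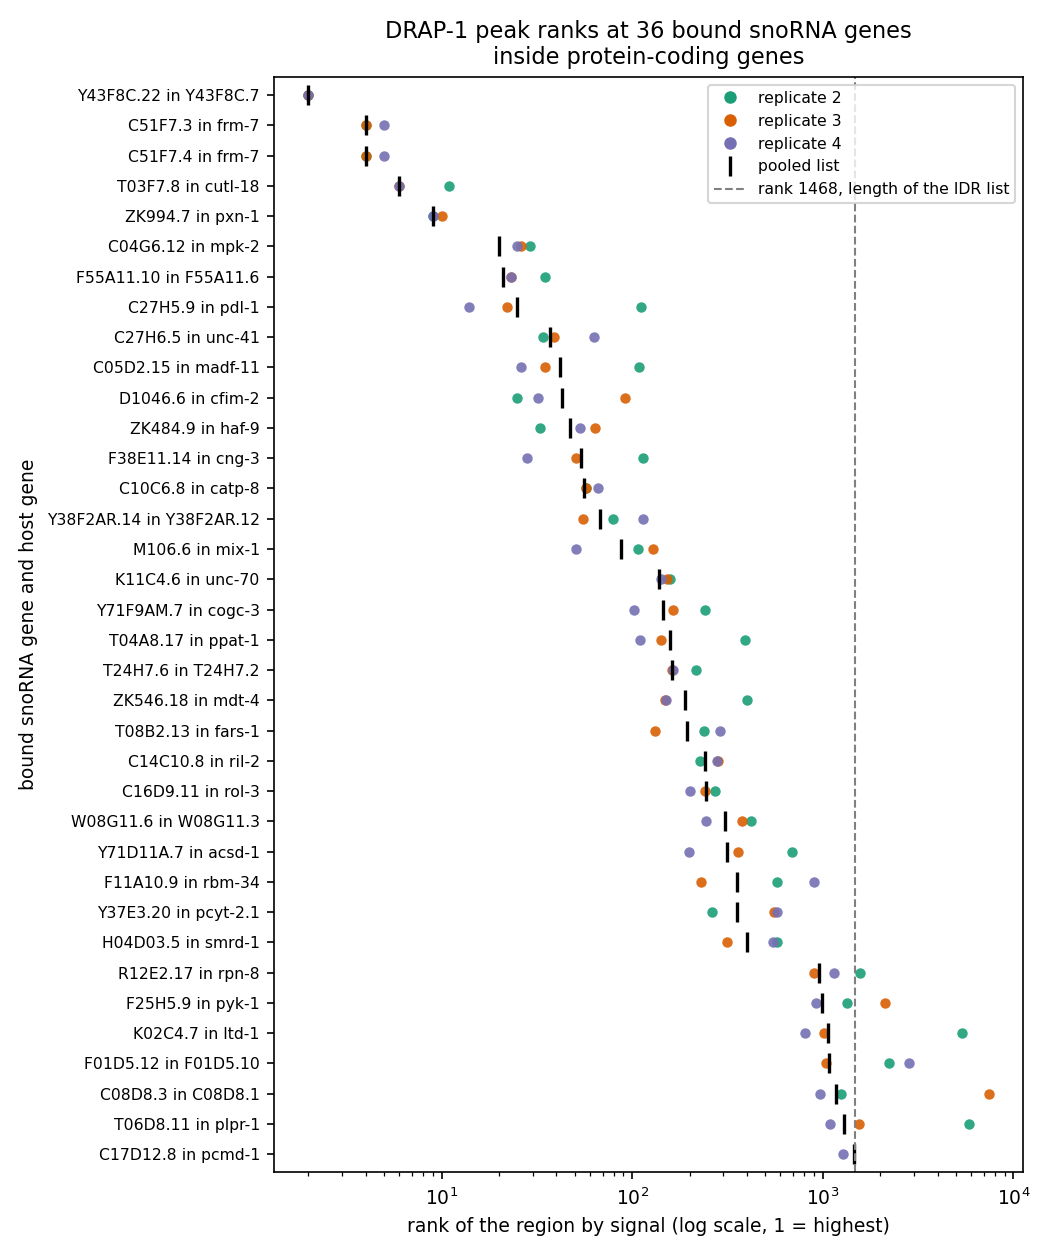
Rank by signal (log scale, 1 is the highest) of the region at each of the 36 bound snoRNA genes in replicates 2, 3 and 4 (points) and in the pooled list (bars), with the host gene after each name and a dashed line at rank 1468. The upper 29 genes lie left of the line in all replicates, and of the lower 7, C17D12.8 has a point for replicate 4 alone and the others have at least 1 point right of the line.

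Just outside these limits were members with weaker candidates or more distant summits. The candidates of highest signal outside the IDR list were at smy-2 in C33A12.3 (118.5, rank 1697), Y55F3BR.9 in Y55F3BR.2 (118.2, rank 1712), F07A11.15 in din-1 (101.0, rank 2452), Y46E12BL.11 in spsb-1 (96.10, rank 2759) and W04D2.7 in the innexin gene inx-11 (95.69, rank 2785). The signals of all 26 such candidates were 32.45 to 118.5, and 22 of them were absent from at least 1 replicate list. An IDR summit lay 101 to 200 bp from 3 further members. The strongest was at B0334.12, in the potassium channel gene twk-5, with a signal of 677.6 at rank 26 and a summit 126 bases downstream of the 5′ end. The others were F39B2.14 in tmem-107 (266.2, 126 bases upstream) and C18D1.21 in die-1 (158.5, 181 bases upstream). At F54E7.10 in rps-12 and C02F5.15 in rfs-1 the nearest summits lay 241 and 251 bases upstream.

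In the pooled list the summits sat upstream of the snoRNA, at a narrow distance. Their median position was -44.0 bases from the annotated 5′ end (range -75 to 40), and 35 of the 36 were upstream. In the replicate lists 7 of 35 in replicate 2, 3 of 35 in replicate 3 and 1 of 36 in replicate 4 were downstream. The medians in the replicate lists were -32.0, -39.0 and -45.5 in replicates 2, 3 and 4, and that of bound snoRNA genes outside coding genes was -49.0. For 29 of the 36 no other gene's 5′ end of any biotype lay within 100 bp of the summit, and for 32 the member was the nearest. In 4 cases another 5′ end was nearer, namely the ncRNA genes Y37E3.29 (4 bp, at Y37E3.20) and T06D8.17 (11 bp, at T06D8.11), the tRNA pseudogene T08B2.t1 (19 bp, at T08B2.13), and C51F7.4 for C51F7.3.

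Bound members were spread through their hosts, and few lay near the host's own 5′ end. Their median distance from it was 2359 bp (range 277 to 16071), against 1992 bp (57 to 46394) for the 180 unbound members. Of the 37 members within 500 bp of the host's 5′ end 2 were bound (5.41%, interval 0.661 to 18.2). They were C27H5.9 at 277 bp and T04A8.17 at 491 bp, both on the strand opposite to the host. Of 32 same-strand members in that range 0 were bound, which allows a share of up to 10.9%. The share was 21.4% of 70 members at 500 to 2000 bp (interval 12.5 to 32.9). It was 19.1% of 47 at 2000 to 5000 bp (interval 9.15 to 33.3) and 16.1% of 62 farther in (interval 8.02 to 27.7). These intervals and that of all members within 500 bp overlapped, and each includes the 16.7% over all members. The farthest bound member was M106.6, 16071 bp into mix-1. By the host's exons and introns, 34 of 176 members whose 5′ end lay in an intron were bound (19.3%, interval 13.8 to 25.9). In an exon of some transcript 2 of 40 were bound (5.00%, interval 0.611 to 16.9), and the 2 intervals overlap. Nearly all exon members belong to a run of gene identifiers that holds C51F7.4 as its only bound member, given below with length and chromosome.

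Opposite-strand members had the higher bound share, but the intervals overlapped and the difference was small at the shorter matching distance. Of 33 opposite-strand members 8 were bound (24.2%, interval 11.1 to 42.3), against 28 of 183 same-strand members (15.3%, interval 10.4 to 21.3), a difference of 8.94 percentage points (interval -3.92 to 26.3). This difference was 1.74 at a matching distance of 50 bp, 4.52 with replicate 3 left out and 5.61 with replicate 4 left out. Among the 1468 highest regions the shares were 18.2%, 21.2% and 30.3% of opposite-strand members in replicates 2, 3 and 4, against 13.7%, 14.2% and 15.3% of same-strand members. The difference averaged 8.84 ± 5.48 percentage points and was positive in 3 of 3 replicates (exact sign-flip permutation test, p = 0.25, the smallest possible). The 8 bound opposite-strand members lay a median of 1079 bp from the host's 5′ end, against 3114 bp for the 28 bound same-strand members.

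**Figure D3:**
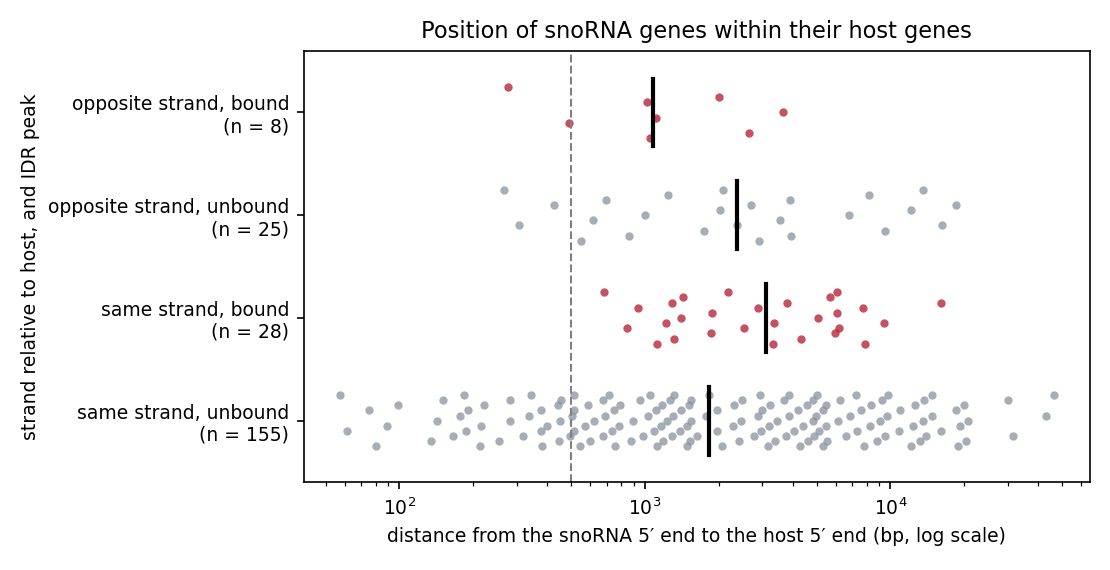
Distance from the snoRNA 5′ end to the host's 5′ end (bp, log scale) for each of the 216 members, by strand relative to the host and by the presence of an IDR peak. Vertical bars are medians, the vertical spread of points is for display, and the dashed line marks 500 bp, below which 2 opposite-strand and 0 same-strand members were bound.

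Ribosomal protein and translation factor genes, which are known snoRNA hosts in animals, held no bound member. Of 21 members in ribosomal protein genes 0 were bound (upper limit 16.1%, close to the 16.7% over all members), and of 5 in genes of translation factors 0 were bound (upper limit 52.2%). Most of these 21 lie on the host's strand within 500 bp of its 5′ end, where 0 of 32 same-strand members were bound. The result by host group and the result by distance thus rest partly on the same genes. A candidate lay at 5 of the 21, namely B0041.9 in rpl-4, B0250.19 in rpl-2, F28C6.11 in rpl-26, K11H12.12 in rpl-15 and Y37E3.22 in Y37E3.8, at pooled ranks 8915, 16229, 14486, 21388 and 18044. A further 11 members were in hosts whose RefSeq product name holds words for RNA binding, splicing, ribonucleoproteins or the nucleolus, and 2 of them were bound, D1046.6 in cfim-2 and F11A10.9 in rbm-34. These words miss hosts of a like kind, among them cgh-1, vbh-1, larp-1, utp-20, prpf-4 and akap-1, and the search for ribosomal protein genes left out ubl-1 and the mitochondrial mrps-2. The members in these hosts were unbound. None of the 4 members hosted by nol-56, which encodes a core protein of box C/D particles, was bound. The other 34 bound members were among the 179 (19.0%) in all remaining hosts, those just named included.

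Hosts with a DRAP-1 peak at their own 5′ end were commoner among unbound than among bound members. A host summit counted as separate only when it lay more than 100 bp from the member's 5′ end. This limit can bar a summit only for bound members. Of the 36 bound members 1 had a host with a separate IDR summit within 500 bp of the host's 5′ end (2.78%), M106.6 in mix-1, whose own summit ranked 940, and with any replicate left out the count was 0. Of the 180 unbound members 37 (20.6%) had such a host, with members that share a host each counted. By host, 27 of the 154 that hold unbound members had such a summit, against 3.75% of all coding genes. Of the 37 members 12 were in ribosomal protein genes. Apart from the summits near pdl-1 and twk-5, those of highest rank were at rpl-15 (signal 455.1, rank 109), the translation factor gene iff-2 (451.0, rank 111), the AAA ATPase gene cdc-48.1 (441.0, rank 114), the heat shock protein gene hsp-1 (344.9, rank 184) and rps-12 (337.1, rank 195). Summits that other neighbouring genes share were not set apart. At pdl-1 and twk-5 the summit is that of a snoRNA gene or near one. The summit near the 5′ end of pdl-1 is the peak of C27H5.9, counted here for the unbound C27H5.10, and that of twk-5 is the one 126 bases from B0334.12. With summits within 100 bp of a snoRNA 5′ end left out, 36 remained. The 37 members lay a median of 691 bp from the host's 5′ end (range 61 to 19266). The contrast thus rests partly on the same genes as those by distance and by host group.

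The bound share differed with the length of the snoRNA. Of members up to 100 bp long 19 of 63 were bound (30.2%, interval 19.2 to 43.0), of those over 100 and up to 150 bp 17 of 101 (16.8%, interval 10.1 to 25.6), and of those over 150 bp 0 of 52 (upper limit 6.85%). In the replicates the mean shares among the 1468 highest regions were 27.5% ± 3.30, 15.8% ± 0.990 and 1.28% ± 2.22 in the same order (SD, n = 3). The median length was 93.0 bp for bound and 129 bp for unbound members. Both kinds of snoRNA were among the bound. The letters of the C box (TGATGA in the first 20 bases) and D box (CTGA in the last 20) were both found in 9 members, 3 of them bound, and ACA in the last 7 bases without such a pair in 66, 13 of them bound. The exact letters of either kind were missing in 141 members, so they do not sort the set as a whole. On chromosome V 12 of 39 members were bound (30.8%), the highest share, and on X 0 of 10 (upper limit 30.8%). The contrasts by length, by chromosome X and by exon rest partly on the same genes. All 10 members on X, nearly all in exons and most over 150 bp have gene identifiers from WBGene00219780 to WBGene00220246. In that run of identifiers C51F7.4, which shares the peak of C51F7.3, was the only bound member.

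Many bound members had the letters of a tRNA gene's promoter boxes upstream of them. The A box and B box letters, in this order and 25 to 75 bases apart on the snoRNA's strand between 100 bases before and 20 after the 5′ end, were found at 21 of the 36 bound members (58.3%). They were found at 2 of 26 members with a candidate outside the IDR list, R166.7 in mnk-1 and F19H8.6 in mltn-9, and at 0 of the 154 with no candidate. Of bound snoRNA genes outside coding genes 10 of 31 held them (32.3%), of the unbound ones outside 2 of 99, and of all genes 116 (0.247%). The windows of the bound members were read before these letters and the allowed mismatch were settled, so their share is a description and has no test, and a match is neither a site nor a cause. The exact letters TGGCNNAGT, sought on both strands from 100 before to 150 after the 5′ end, were in 11 bound members (30.6%), against 4 unbound ones (2.22%) and 2.03% of all genes. Those of the B box as GGTTCGA were in 6 bound members (16.7%), against 7 unbound ones (3.89%) and 3.09% of all genes.

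The replicate lists taken alone gave like shares. The members found there were mostly the bound members whose windows had been read first, with only 4 unbound ones among them. The like shares are therefore no separate support for the boxes. Of the members among the 1468 highest regions the A and B box letters were found in 20 of 31 in replicate 2 (64.5%), 20 of 33 in replicate 3 (60.6%) and 21 of 38 in replicate 4 (55.3%). Of the other members they were found in 1.62%, 1.64% and 1.12%. Of the 21 bound members that hold them 19 were in every replicate and 5 lay on the strand opposite to their host, and their median pooled rank was 87.0 (range 2 to 985).

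The boxes were spaced much as in tRNA genes, but started before the annotated gene. The A box letters started upstream of the 5′ end at a median position of -58 (range -69 to -45) and those of the B box at -14.0 (range -24 to -5). The distance between the 2 starts had a median of 44.0 bases (range 33 to 52) and was within 2 bases of that at 18 of the 21. In tRNA genes the same letters were found in the first 100 bases of 464 of 612 (75.8%), a median of 45 bases apart. In the pooled list the DRAP-1 summit lay between the start of the A box and the start of the B box at 18 of the 21 members. Its median position was 14.0 bases after the start of the A box. In replicate 2 the summits of many of the 21 lay outside this stretch, with positions of -68 to 39 (median -33.0). The positions were -67 to -12 in replicate 3 (median -43.0) and -68 to -11 in replicate 4 (median -44.0). At D1046.6 and T08B2.13 the annotation places a tRNA pseudogene over these letters, D1046.t1 of 74 bp and T08B2.t1 of 72 bp, whose 5′ ends lie at -65 and -68 on the snoRNA's strand. The A box letters marked at D1046.6 start at -45, farther into the pseudogene than the 2 to 15 bases seen in tRNA genes. Their distance to the B box letters, 33 bases, is below the 36 to 68 of tRNA genes. So the marked letters at D1046.6 are not where the A box of a tRNA gene would start. The unbound member F19H8.6 has such a pseudogene too (F19H8.t1, 70 bp), and its candidate ranked 3172.

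**Figure D4:**
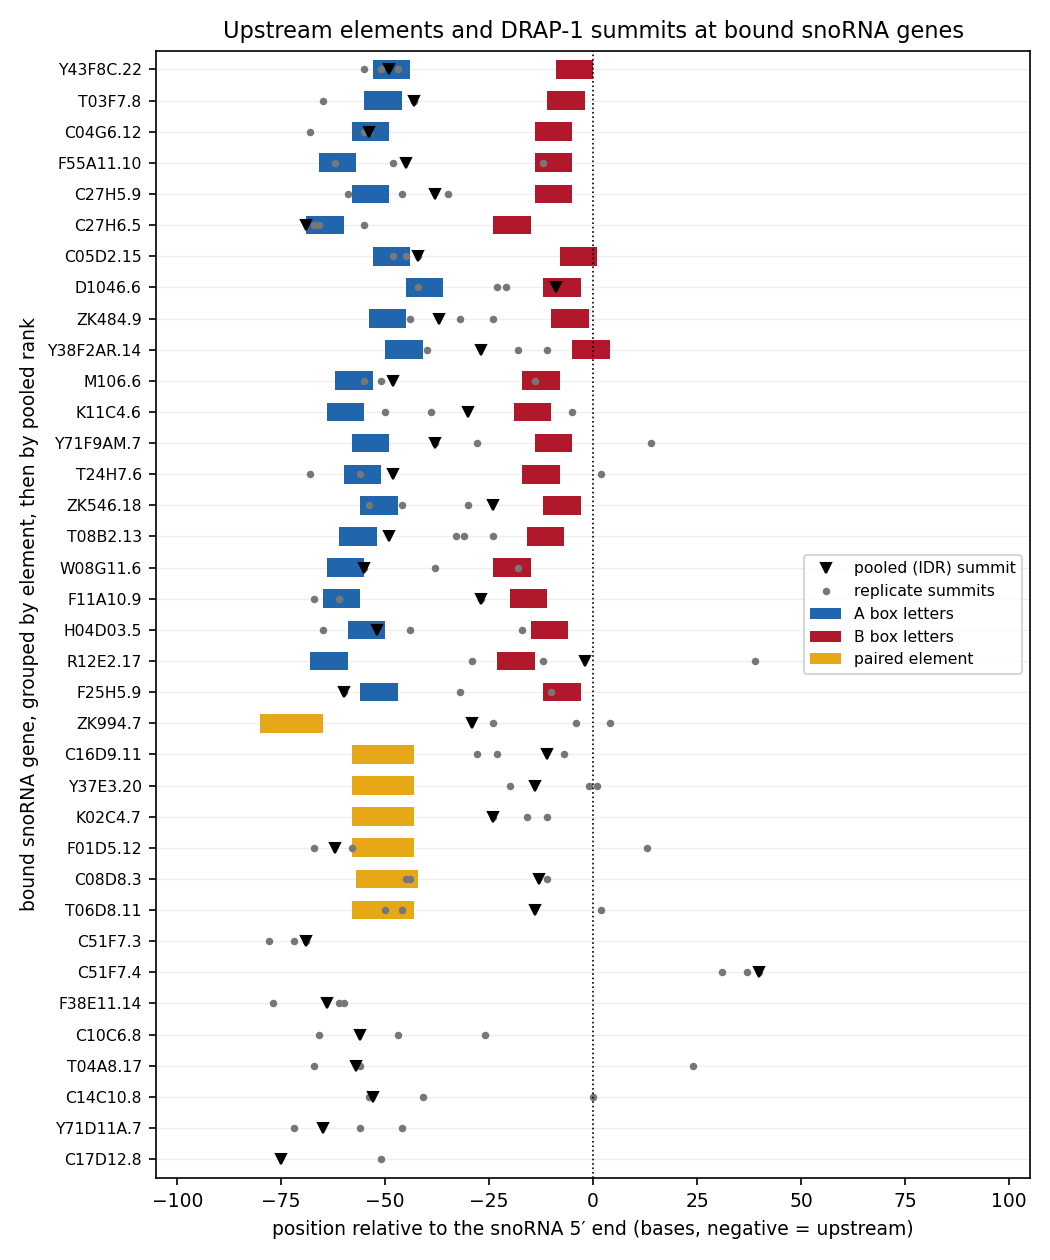
Positions, in bases from the annotated 5′ end (negative is upstream), of A box letters, B box letters and the paired element at the 36 bound snoRNA genes, with the pooled summit (triangle) and the replicate summits (dots). The 21 genes with both boxes come first, then the 7 with the paired element and the 8 with neither, each in order of pooled rank.

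A second, smaller group of bound members carried a different element. The paired element was found at 7 of the 36 bound members (19.4%), at 5 of the 26 with a candidate outside the IDR list (19.2%), at 6 of the 154 with no candidate (3.90%) and at 0.232% of all genes. Outside coding genes its share was alike at bound and unbound snoRNA genes, with 4 of 31 (12.9%) and 13 of 99 (13.1%). It was also found upstream of 30 of 129 snRNA genes (23.3%), whose promoters are known to carry a proximal sequence element. The bound 7 were ZK994.7, C16D9.11, Y37E3.20, K02C4.7, F01D5.12, C08D8.3 and T06D8.11. At 6 of them the element started within 2 bases of the median position, -58, and at ZK994.7 it started at -80. Their summits lay closer to the gene than those at the boxes, at a median of -14.0 against -43.0 bases. ZK994.7, C16D9.11 and Y37E3.20, at ranks 9, 245 and 355, were in every replicate, and the other 4 had signals of 135.1 to 147.1, below the median of 174.1 over all IDR peaks. The median signal of the 7 was 147.1 (135.1 to 948.6), against 495.7 (152.8 to 1845) at the 21 with boxes. With replicate 2, 3 or 4 left out, 4, 4 and 3 of the bound members held the element. No member held both the boxes and the paired element, and the letters of this element were also picked after the windows had been read.

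The 8 bound members with neither pair were C51F7.3, C51F7.4, F38E11.14, C10C6.8, T04A8.17, C14C10.8, Y71D11A.7 and C17D12.8. Of these 7 were in every replicate, and their median signal was 466.3. The A box letters were in the window of 4 of them and the B box letters in 4, with both at C14C10.8 and none at C51F7.4. In the bases upstream of C14C10.8 the B box letters lie before the A box letters, which is not the order sought. Either box by itself is common, in 8.47% (A) and 8.13% (B) of all genes.

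A run of TTTT followed most bound members, and TATA letters stood before few of them. TTTT lay within 20 bases after the 3′ end of 30 of 36 bound members (83.3%), against 65 of 180 unbound ones (36.1%). It followed 35.7% of all genes and 98.4% of tRNA genes. Outside coding genes it followed 22 of 31 bound snoRNA genes (71.0%) and 28 of 99 unbound ones (28.3%), a like contrast. Among the 1468 highest regions of replicates 2, 3 and 4 it followed 87.1%, 84.8% and 81.6% of the members found there, against 36.8%, 36.6% and 36.0% of the other members. TATAA, on either strand in the 100 bases before the 5′ end, was found at 3 of 36 bound members (8.33%). It was found at 32 of 180 unbound ones (17.8%) and at 29.3% of all genes. Outside coding genes it was found at 19.4% of bound and 24.2% of unbound snoRNA genes. The difference between bound and unbound members was -9.44 percentage points, with an interval of -17.7 to 4.91 that spans 0, and was -3.54 at a matching distance of 50 bp.

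The commonest 8-base words in the 100 bases before the bound members overlapped the A box letters or the bases next to them. TGGCGCAG, on either strand, was in 7 bound members (19.4%), against 5 unbound ones (2.78%) and 0.119% of all genes. GAGTGGTT and AGTGGTTA were each in 5 bound and 0 unbound members, and CCGAGTGG was in 5 bound and 1 unbound. No word of 8 bases was in more than 7 of the 36 windows, and no member has an identical copy among the snoRNA genes.

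**Figure D5:**
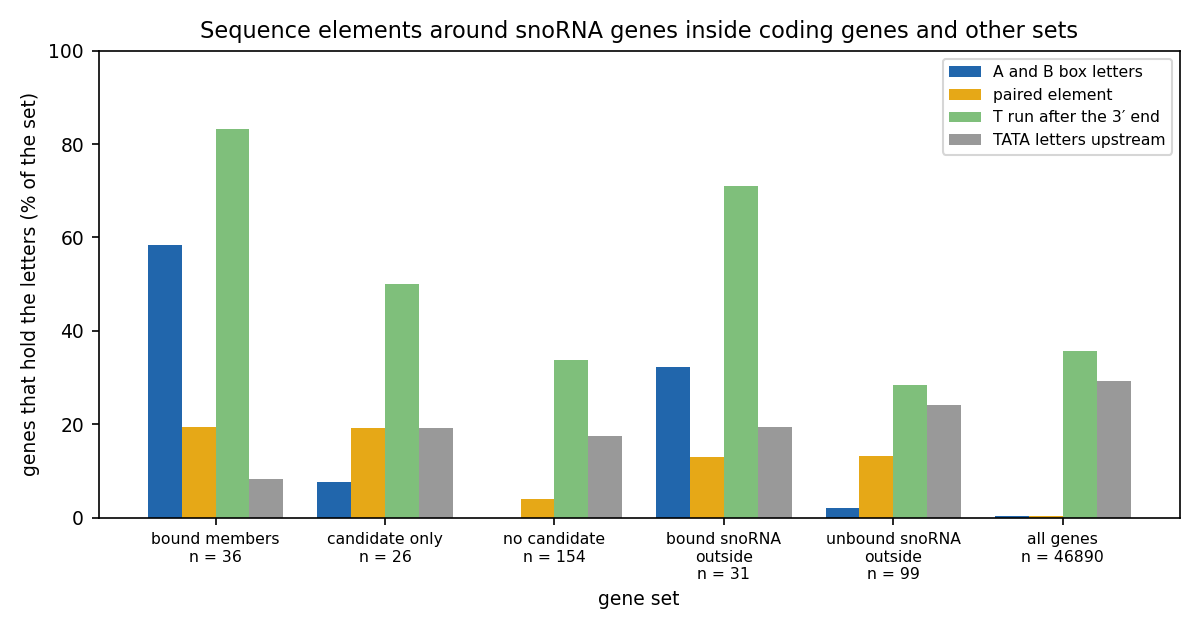
Percent of genes that hold the A and B box letters, the paired element, a run of TTTT within 20 bases after the 3′ end, or TATAA in the 100 bases upstream. The bound members (58.3% with boxes, 83.3% with the T run) stand left of members with a candidate outside the IDR list, members with no candidate, snoRNA genes outside coding genes and all genes.

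The genes of the proteins that work with snoRNAs were looked at as the rest of the pathway. Of 8 such genes 2 had an IDR summit within 500 bp of the 5′ end, against 3.75% of all coding genes, and all 8 had a pooled candidate within that distance, against 31.3%. The 2 were fib-1, which encodes fibrillarin, the methyltransferase of box C/D particles (signal 440.6, rank 115, summit at -107), and nol-58 (141.5, rank 1146, summit at -325). The other C/D genes, nol-56 and snu-13, had only candidates at ranks 25666 and 18290. The H/ACA genes dkc-1 (the pseudouridine synthase dyskerin), garr-1, Y48A6B.3 and nola-3 had candidates at ranks 4084, 24653, 4416 and 5285.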

How the data were processed

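ChIP-seq of GFP-tagged DRAP-1 was deposited for 3 biological replicates of 1 group, with no comparison group. Per the sample descriptions an anti-GFP antibody was used, while the antibody label reads drap-1. Per the deposited README texts, each replicate's list came from its own ce11 alignment and controls, the pooled list from all 3 alignments, and the IDR list from those lists. Which caller and IDR cut-off were used, and what the controls were, is not given in the sources used here. The authors gave each region a signal, of unstated scale, and a −log10 q-value. Lists differ in scale, so signals were ranked within each list, and the q-value was only described. Read depth is unknown.

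Gene models were those of Ensembl release 115 (WBcel235), and all regions fell within its chromosome lengths. RefSeq has a snoRNA of the same symbol for 215 of the 216 members and gave the host products and genome sequence. A summit within 100 bp of a gene's 5′ end was matched to it, taking the highest signal. Where a member lay in several coding genes (4 members), a same-strand host came first, then the shortest. Hosts were grouped by symbol or RefSeq product. Shares have exact Clopper-Pearson 95% intervals, and replicate differences an exact sign-flip test. The intervals of differences between 2 shares are not of the Clopper-Pearson kind. Intervals cover counting error only, and IDR peaks derive from the same reads as the replicate lists. The text names all bound members, details for the 15 of highest signal, 9 sequences among these, up to 5 members just outside each limit and the snoRNA-protein genes. Members and lists were chosen with earlier results of these data known, and the box and paired-element letters after the bound members' sequences were read. Alternatives covered the distance, the number of regions, a stricter IDR list, nearest-gene matching, whole-gene membership and leaving out each replicate. Matching and motif search were tested on simulated data. Python 3.11.15, numpy 2.4.6, scipy 1.17.1 and matplotlib 3.10.9 were used.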

Additional observations from a re-analysis of the deposited data

How the results depend on the processing

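Of 90 values recomputed over 12 results and 10 alternatives, 77 kept within the spread or within 1.5 times the main count. A further 13 moved and 0 reversed direction. Among the 77 are the values for whole-gene membership, which repeated the main value in every case and so add nothing as a check. At 50 bp, 23 members had an IDR summit, 36 had a pooled candidate, 11 had a summit among the 1468 highest regions of every replicate, and the mean share over replicates was 10.3%. That mean share was 13.4% with the 734 highest regions of each replicate. The count of bound members whose host has a separate summit, 1 in the main setting, was 0 with the 734 highest IDR peaks and 0 with any replicate left out. The paired element was at 3 bound members with the 734 highest IDR peaks and at 3 to 4 with a replicate left out, against 7. With a replicate left out, 29 to 32 members were bound, and 19 to 20 held both boxes. No peaks were called again for this, so the values are not those of separate calls without that replicate. With replicate 4 left out, the bound count (29) and the count with both boxes (19) equalled those with the 734 highest IDR peaks. A drop with a replicate left out therefore cannot be told apart from that of a stricter limit. The inside minus outside, opposite minus same strand and bound minus unbound TATAA differences (-7.18, 8.94 and -9.44 percentage points) have intervals that span 0. They kept their signs under each alternative run, but at 50 bp they were -1.66, 1.74 and -3.54, with replicate 3 left out -3.34, 4.52 and -7.62, and with replicate 4 left out -5.04, 5.61 and -6.77. No paired analysis was possible because there is only 1 group. Unknown depth means an unbound member may be one not detectable here.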
